A study of Caenorhabditis elegans with 8 samples.

Results

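The 10 genes described here encode proteins of the apical precuticle, the temporary matrix that covers the epidermis of Caenorhabditis elegans while a new cuticle is made, together with molting proteins and a molting protease inhibitor. They are noah-1, noah-2, fbn-1, let-653, lpr-3, sym-1, mlt-8, mlt-9, mlt-10 and mlt-11. They were chosen by name, with earlier results of these data known. Their probes were found by matching each probe's target, with the isoform letter removed, to the gene. All 10 were on the array with 14 of its 43603 probes, among 19794 genes that could be named. 8 of them had 1 probe each, mlt-10 had 2 and mlt-9 had 4. The match gave 9 genes with 13 probes that could be tested. fbn-1 was not among them because its probe was well above background on none of the 8 arrays.

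At every molt the epidermis secretes a precuticle beneath the old cuticle, builds the new collagen cuticle under its cover and then removes it with proteases that are held in check by inhibitors. Proteins with a zona pellucida (ZP) domain, leucine-rich repeat proteins and lipocalins are components of this matrix, and worms that lack some of them cannot shed the old cuticle or keep their narrow tubes open. Transcripts of many molting genes are known to rise and fall once in each larval stage, and lethargus, the sleep-like state of larvae, falls in the same window.

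The study compared whole hermaphrodite larvae of the wild type N2 with the deletion mutant aptf-1(gk794), all in the L4 sleep stage and grown at 21.5 °C on bacteria. aptf-1 encodes an AP2 transcription factor that sleep requires, and the study describes these mutants as lacking the immobility of sleep. The mutant had been backcrossed to N2 and is represented by 1 allele. Each of the 4 samples per genotype held RNA of about 200 hand-picked animals and was hybridized to 1 single-color Agilent array. In RNA of whole larvae, a change in the amount of epidermis and a change in RNA per cell cannot be told apart.

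A level below is the log2 processed signal of a gene minus the 75th percentile of all probes on the same array, averaged over the gene's probes. All differences are log2 values of the mutant minus those of N2. The 75th percentile ranged from 317 to 842 signal units over the arrays. The arrays lay on 2 slides, each with 2 arrays of each genotype. N2 was always at positions 1 and 2 of a slide and the mutant at positions 3 and 4, so position and genotype cannot be told apart. flp-11, a neuropeptide gene of the sleep neuron RIS, was lower by 1.18 ± 0.07 (SE) in the mutant arrays at a limma adjusted p of 0.00276, and separated the genotypes on both slides. The probe of the deleted gene aptf-1 did not follow the labels throughout. It was -5.96, -7.22, -4.29 and -7.13 in mutant replicates 1 to 4 against -5.58 to -5.18 in N2, so the highest of all 8 belonged to the array labelled aptf-1(gk794) replicate 3. Whether this probe lies inside the deletion was not analysed here. Of the 6 epidermal markers, 5 were well above background on all 8 arrays. The summed linear level of the 6 epidermal markers was 5.99 to 6.48 times the 75th percentile in N2 and 4.81 to 5.56 in the mutant, without overlap. Of these 6, 4 were lower in the mutant and 2 were higher, che-14 by 1.55 and lin-26 by 0.18. che-14 was dim, with a level of -7.03 in N2 replicate 1. elt-3 made up 39% to 52.2% of the sum. The 5 intestinal markers summed to 54.8 to 71.1 in N2 and 40.5 to 47.3 in the mutant. The 4 adult markers tested were all lower in the mutant, with a median difference of -0.37, of -0.22 within slide 1 and of -0.57 within slide 2. They summed to 175 to 262 in N2 and to 195, 217, 127 and 168 in mutant replicates 1 to 4. The part of these shifts in the results below was not tested.

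None of the 9 tested genes passed in limma at the threshold used (adjusted p under 0.05 and at least 1.5-fold), and neither did any of the 13 probes. Over all genes, 17 of 18312 (0.0928%) passed, 0.0328% with higher and 0.0601% with lower levels in the mutant, and over all probes 19 of 31999 (0.0594%). At an unadjusted p under 0.05 and the same fold limit, 4 of the 9 passed, against 3.56% of all genes (1.59% higher and 1.97% lower in the mutant). These were let-653, mlt-9 and mlt-11, which were higher in the mutant, and noah-2, which was lower. let-653 entered the test through the mutant group alone, and 3 of the 8 genes without it passed. With 1 array left out, 2 to 6 genes passed at that limit. There were 2 when mutant replicate 3 or 4 or N2 replicate 3 or 4 was missing. There were 6 without mutant replicate 2, beside 738 of 18462 over all genes. The count over all genes also moved, from 501 of 18447 without mutant replicate 4 to 1024 of 18341 without mutant replicate 1. Without mutant replicates 3 and 4 together, 1 gene passed, beside 646 of 18640 over all genes. In that fit the median difference over the 9 genes was -0.02. The median difference over the 9 genes was 0.48, beside -0.03 over all genes tested, and 7 of the 9 had a mean above that of N2, beside 45.3% of all genes. Without let-653 the median was 0.38 and 6 of the 8 were above. The 4 mutant arrays were not alike. On both mutant arrays of slide 2, labelled replicates 3 and 4, 6 of the 9 genes had a level above all other 6 arrays, which was so for 4.19% of all genes. These 6 were noah-1, let-653, lpr-3, mlt-9, mlt-10 and mlt-11, or 5 of 8 without let-653. This count was chosen after the data had been seen. Over the 8 arrays, 7 of the 9 genes, all but noah-2 and sym-1, correlated with one another at Pearson r of 0.57 to 0.97. They are therefore not independent of one another in this count.

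mlt-10 (C09E8.3, chromosome II) had the widest range of the 9. It encodes a secreted protein with proline-rich repeats that is needed to complete the molt. Its levels were -3.49, -1.97, -3.79 and -2.77 in N2 replicates 1 to 4. In the mutant they were -2.83, -2.35, 2.19 and 1.54. The mutant arrays of slide 1 lay within the N2 range, and those of slide 2 lay far above it. The mean difference was 2.65 ± 1.18 (SE) (6.26-fold), and limma gave it an adjusted p of 0.411. The exact permutation p, two-sided over all 70 ways to split the arrays 4 and 4, was 0.143, where 0.0286 is the smallest possible. The SD was 0.81 in N2 and 2.59 in the mutant, and only 2 of the 18312 genes tested had a larger SD among the mutant arrays. Within slide 1 the mutant was 2.08-fold higher and within slide 2 it was 18.8-fold higher. Both probes, which target different transcripts, followed this pattern. The first went from -2.12 in N2 replicate 2, the highest N2 array, to 2.04 and 1.52 in mutant replicates 3 and 4, and the second from -1.82 to 2.34 and 1.55. Without mutant replicates 3 and 4 the difference was 0.42 at a limma adjusted p of 0.804.

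mlt-9 (F09B12.1, chromosome X) was also found through its role in shedding the old cuticle. Its gene value was -3.11, -2.91, -3.04 and -3.24 in N2 and -2.83, -2.79, -0.66 and -1.30 in the mutant. All mutant arrays lay above all N2 arrays, by a narrow margin on slide 1 and a wide one on slide 2. Groups without overlap made up 8.11% of all genes, 3.1% with the mutant higher. The mean difference was 1.18 ± 0.48 (SE) at a limma adjusted p of 0.39, and the exact permutation p was 0.0286, the smallest possible. The mutant was 1.20-fold higher within slide 1 and 4.27-fold higher within slide 2. The 4 probes did not agree. Probe A_12_P109920 was 1.05 to 1.59 in N2 and 0.54 to 1.18 in the mutant, with no rise in replicates 3 and 4, and its difference was -0.27 ± 0.18 (SE). The other 3 probes differed by 1.87, 1.48 and 1.63. They were dim in N2, with signals of 11.6 to 50.4 units, against 952 to 1656 for A_12_P109920. The rise in the gene value thus came from the dim probes alone, and of these A_12_P133075 overlapped between the genotypes. Probe A_12_P112948 was -4.64 to -3.90 in N2, -3.40 and -3.73 in mutant replicates 1 and 2, and -0.87 and -1.38 in replicates 3 and 4. Since A_12_P109920 and A_12_P112948 carry the same target name, the target name does not separate the probe that stayed level from one that did not. With the median of the 4 probes in place of the mean, the difference of mlt-9 was 1.74 at a limma adjusted p of 0.355.

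**Figure D1:**
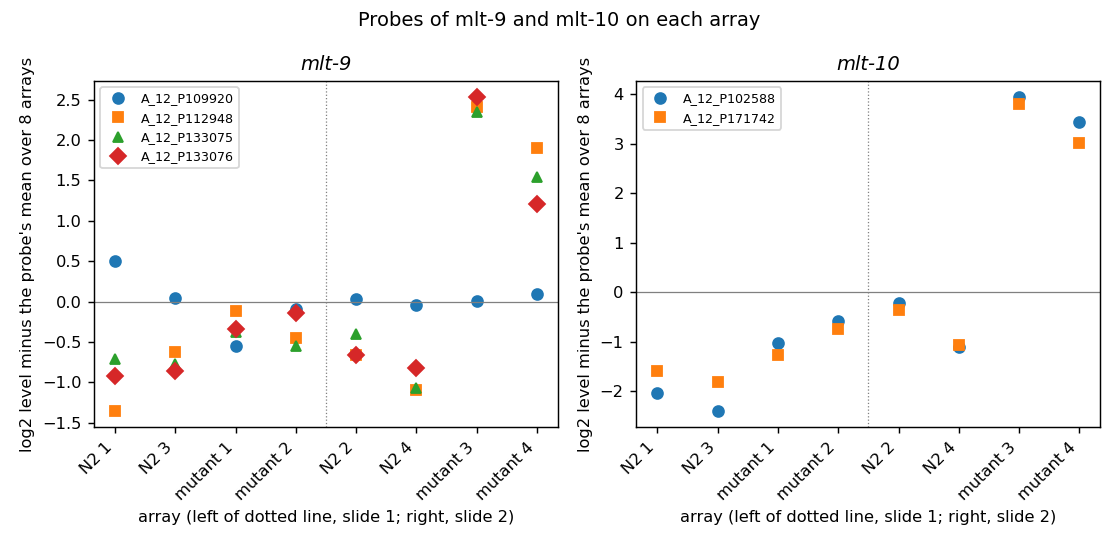
Levels of the 4 probes of mlt-9 and the 2 probes of mlt-10 on each of the 8 arrays (log2, each probe minus its own mean), with slide 1 left and slide 2 right of the dotted line. Both mlt-10 probes and 3 of the 4 mlt-9 probes are highest in mutant replicates 3 and 4, whereas A_12_P109920 stays within 0.54 to 1.59 before centering.

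mlt-11 (W01F3.3, chromosome V) encodes a large secreted protein with Kunitz-type protease inhibitor domains. It was -3.16, -3.10, -3.75 and -3.30 in N2 and -3.14, -3.04, -2.58 and -2.21 in the mutant. The mutant arrays of slide 1 overlapped with N2 and those of slide 2 were the 2 highest. The difference was 0.58 ± 0.23 (SE) (1.5-fold), and limma gave it an adjusted p of 0.384. The exact permutation p was 0.0571. It was 0.37 within slide 1 and 0.80 within slide 2.

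mlt-8 (W08F4.6, chromosome II), likewise needed for molting, was -0.87, -0.74, -1.21 and -0.10 in N2 and -1.15, -1.05, 0.56 and -0.15 in the mutant. Mutant replicate 3 was the highest array and replicate 4 was level with N2 replicate 4. The difference was 0.28 ± 0.41 (SE) at a limma adjusted p of 0.765. It changed sign to -0.05 without replicate 3 and was -0.07 within slide 1.

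Of the ZP-domain proteins, noah-2 (F52B11.3, chromosome IV) went the other way. NOAH-2 and NOAH-1 are relatives of the fly protein NompA and are built into the embryonic sheath and the precuticle. noah-2 was -3.92, -3.33, -4.20 and -3.94 in N2 and -4.62, -5.45, -4.43 and -4.73 in the mutant. All mutant arrays were below all N2 arrays, as for 5.01% of all genes. The difference was -0.96 ± 0.26 (SE) (0.514-fold), and limma gave it an adjusted p of 0.244. Its exact permutation p was 0.0286, the smallest possible. It was -0.97 within slide 1 and -0.95 within slide 2, and -0.24 with normexp background correction. The probe was dim, with signals of 9.91 to 67.8 units. Replicates 3 and 4 did not stand apart here. Fitted with slide and a linear term for position, noah-2 differed by 0.05 ± 0.26 (SE) at a limma adjusted p of 0.986. In the same fit mlt-10 differed by 3.28, mlt-9 by 1.61 and lpr-3 by 0.89, at limma adjusted p values of 0.822, 0.858 and 0.927. The median over the 9 genes was 0.75, and 0 of 18312 genes passed. No position held both genotypes, so this fit rests on an assumed straight line over position. It cannot tell position and genotype apart.

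noah-1 (C34G6.6, chromosome I) did not share this pattern. Its levels were -4.95, -4.95, -4.79 and -4.86 in N2, the smallest spread of the 9 genes in that group. They were -4.93, -5.26, -4.16 and -4.45 in the mutant. Replicates 3 and 4 were above and replicate 2 was below all N2 arrays. The difference was 0.19 ± 0.22 (SE) at a limma adjusted p of 0.718. Within slide 1 it was -0.23 and within slide 2 it was 0.60.

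let-653 (C29E6.1, chromosome IV) encodes a ZP-domain protein with mucin-like stretches that lines the lumen of the excretory duct and the vulva. It was dim. Its probe was well above background on all 4 mutant arrays but on only 1 of 4 N2 arrays, and it entered the test through the mutant group, so its lower values lie near background. The levels were -7.48, -6.45, -7.15 and -6.86 in N2 and -6.60, -6.25, -5.21 and -5.49 in the mutant. Only N2 replicate 2 reached into the mutant range. The difference in measured level was 1.10 ± 0.34 (SE) at a limma adjusted p of 0.304, and the exact permutation p was 0.0571. It was 0.89 within slide 1 and 1.31 within slide 2, and 0.16 with normexp background correction. Since most N2 values lie near background, no fold is given.

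lpr-3 (W04G3.8, chromosome X) encodes a lipocalin-related protein of the same matrix. It was -5.16, -6.01, -5.67 and -5.44 in N2 and -5.39, -5.92, -4.36 and -4.71 in the mutant. Slide 1 arrays of both genotypes overlapped and the mutant arrays of slide 2 were the highest. The difference was 0.48 ± 0.34 (SE) at a limma adjusted p of 0.556. It was -0.24 within slide 1 and 1.19 within slide 2.

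sym-1 (C44H4.3, chromosome X) encodes a secreted leucine-rich repeat protein that acts redundantly in attaching muscle to the cuticle. It was -2.84, -2.19, -2.27 and -3.79 in N2 and -3.25, -2.33, -3.17 and -2.71 in the mutant. The mutant range lay inside the N2 range. The difference was -0.09 ± 0.38 (SE) at a limma adjusted p of 0.926.

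fbn-1 (ZK783.1, chromosome III) encodes a fibrillin-related ZP-domain protein that resists mechanical strain in the embryo and at the molt. Its only probe read -7.89 to -7.03 in N2 and -8.58 to -6.57 in the mutant and was well above background on none of the arrays, so no difference is given.

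**Figure D2:**
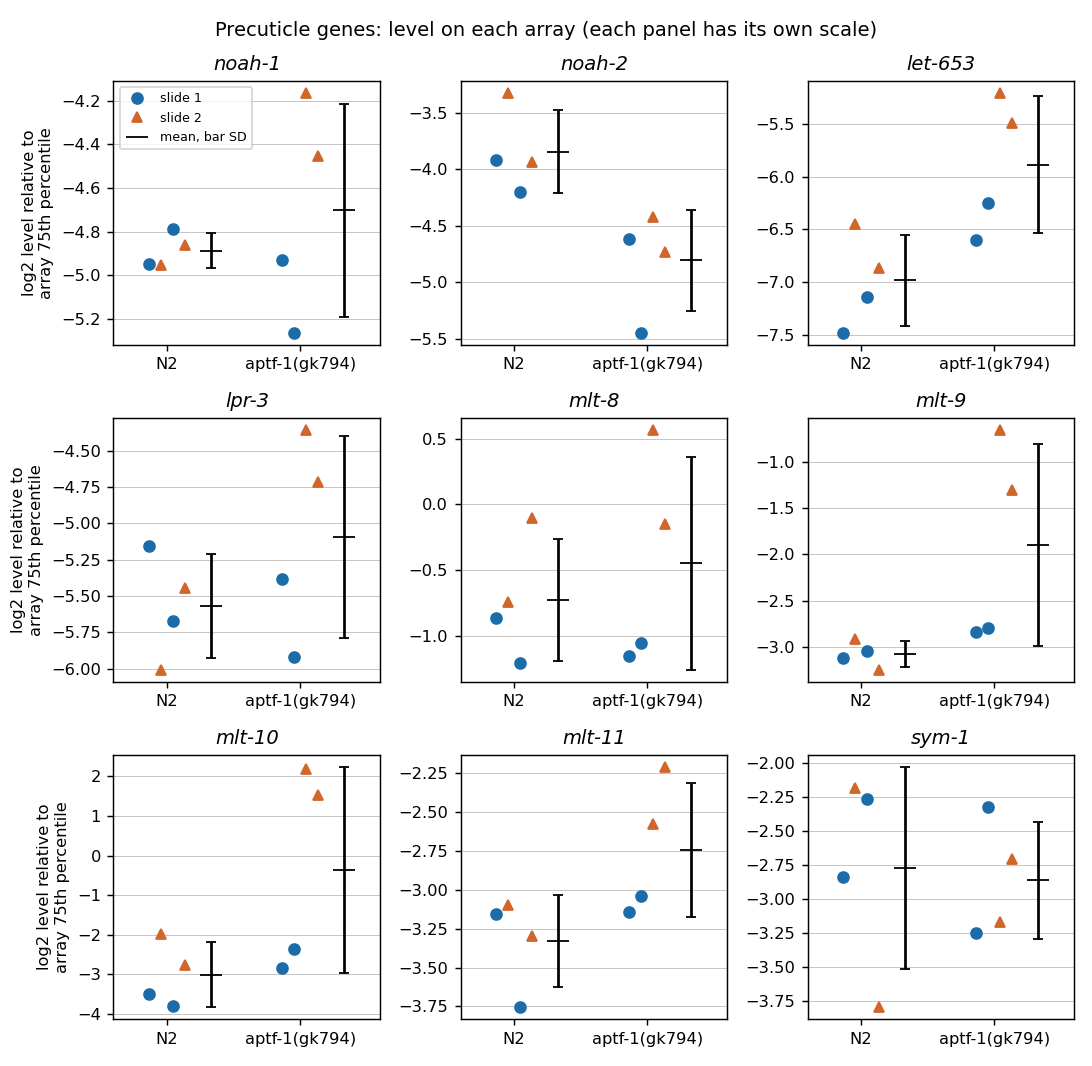
Level of the 9 tested genes on each array (log2 relative to the 75th percentile of the array), with circles for slide 1, triangles for slide 2, and the mean with its SD (n = 4) to the right of each group. In 6 of the 9 panels both triangles of aptf-1(gk794) lie above all other arrays, and in the noah-2 panel the mutant lies below N2 on both slides.

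The comparison was then made within each slide. Within slide 1, 4 of the 9 genes had a mean above that of N2 and 2 were at least 1.5-fold higher, let-653 and mlt-10, beside 6.08% of all genes. Without let-653 these counts were 3 and 1 of 8. Within slide 2, 8 of the 9 had a mean above that of N2 and 7 were at least 1.5-fold higher, beside 5.52% of all genes, or 7 and 6 of 8 without let-653. The exceptions on slide 2 were noah-2 and sym-1. The median difference over the 9 genes was -0.07 within slide 1 and 0.80 within slide 2, where the medians of all genes were -0.01 and -0.03. The difference between the slides was fitted as an interaction of slide and genotype in limma, a fit added after the data had been seen. It was 3.18 ± 0.50 (SE) for mlt-10, 1.83 ± 0.33 for mlt-9, 1.43 ± 0.43 for lpr-3 and 0.83 ± 0.24 for noah-1. The unadjusted p of these 4 was 0.000717, 0.00143, 0.016 and 0.0146, and a larger difference on slide 2 at an unadjusted p under 0.05 and at least 1.5-fold was found for 0.956% of all genes (2.47% in either direction). After adjustment over all genes, 0 of 18312 genes passed, and the adjusted p of the 9 genes was 0.994 or higher. The unequal difference between the slides was therefore not established for any single gene. For noah-2 the slides differed by 0.03 ± 0.47 (SE). With normexp background correction the slides differed by 3.09 for mlt-10, 1.15 for mlt-9, 0.37 for lpr-3 and 0.30 for noah-1. The values of lpr-3 and noah-1 were then below the 1.5-fold limit. Both genes were dim, with signals of 7.15 to 41.1 units for lpr-3 and 10.3 to 47.0 for noah-1. Each slide holds 2 arrays of a genotype, so the slide cannot be told apart from the particular samples on it. In N2 the mean mlt-10 level was -3.64 on slide 1 and -2.37 on slide 2, whereas the mean mlt-9 level was -3.07 and -3.08. In 5 of the 9 genes the N2 mean was higher on slide 2. In 3 of the 9, among them the dim let-653, both N2 arrays of slide 2 lay above both of slide 1. The matching shares over all genes were not counted, so these counts show no general shift of N2 between the slides.

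**Figure D3:**
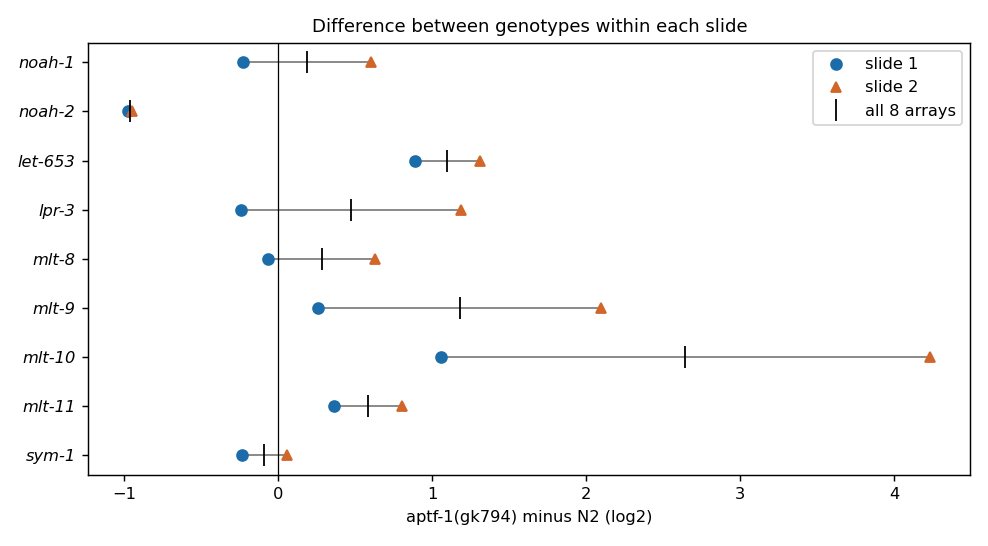
Difference between aptf-1(gk794) and N2 (log2) for each of the 9 genes within slide 1 (circles), within slide 2 (triangles) and over all 8 arrays (bars), 2 arrays per genotype and slide. The slide 2 value of mlt-10 is 4.24 against 1.05 on slide 1, whereas both values of noah-2 lie at about the same place, -0.97 and -0.95.

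The neighbors of these genes on the chromosome, by gene order in the RefSeq table for WBcel235, gave the local context. mlt-10 and mlt-8 lie on chromosome II with 4 protein-coding genes between them. Of these, 2 were tested. lips-7, a lipase-related gene next to mlt-10, differed by -0.23 within slide 1 and by 1.20 within slide 2, with an adjusted p of 0.745 over all arrays in limma, and C09E8.1 differed by 0.06 and -0.16. Beside mlt-9, dhhc-1 differed by 0.00 and 0.04 within the slides and R07D5.2 by -0.48 and -0.24. Beside lpr-3, C09F12.2 differed by 0.38 and -0.54, and beside mlt-8, W08F4.7 differed by 0.03 and -0.58. Beside let-653, the ZP-domain gene cutl-27 differed by 0.43 and 0.63 and the nuclear receptor gene nhr-43 by 0.50 and 1.13. sym-1 lies next to let-4, another leucine-rich repeat gene of the apical matrix, which differed by -0.04 within slide 1 and 0.42 within slide 2.

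Other genes of molting and cuticle formation were read from 9 lists with 148 listed genes, of which 123 were tested. None passed the adjusted threshold in limma. With the slide as a block, 0.0655% of all genes passed, 12 of 18312, and among the lists 2 cuticle collagen genes did, sqt-1 with a difference of 2.60 and an adjusted p of 0.0414 and rol-8 with a difference of 2.82 and an adjusted p of 0.0443. None of the precuticle genes passed in that limma fit, where the lowest adjusted p was 0.0924, for let-653. That gene entered the test through the mutant group alone, and the lowest without it was 0.194, for noah-2. The 13 tested named cuticle collagens outside the furrows, structural genes of the new cuticle, had a median difference of 1.54, of 0.82 within slide 1 and of 2.26 within slide 2. bli-2, a collagen of the adult struts, was -3.85 to -3.21 in N2, -2.63 and -2.80 in mutant replicates 1 and 2 and 0.57 and -0.39 in replicates 3 and 4. lon-3, a collagen that sets body length, was -4.88 to -2.07 in N2 and -2.56, -2.12, 2.07 and 1.33 in the mutant. In both genes replicates 3 and 4 were the highest arrays, as for mlt-10. Within slide 1 bli-2 was already higher by 0.96 and lon-3 by 2.46. In N2, lon-3 was -4.88 and -4.74 on slide 1 and -2.07 and -2.95 on slide 2. The differences of bli-2 and lon-3 over all arrays were 2.20 ± 0.73 (SE) and 3.34 ± 1.18 (SE), with adjusted p values of 0.327 and 0.348 in limma.

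The other lists had smaller median differences. The 29 tested ZP-domain cuticulins, relatives of the NOAH proteins and LET-653, had a median of -0.04, with -0.43 for cutl-18 and -0.28 for cutl-20. The 16 leucine-rich repeat genes had a median of 0.03, with -0.35 for lron-8 and 0.25 for lron-15. The 13 protease inhibitors had a median of 0.03. Among them the serpin genes srp-3 and srp-8 differed by 0.43 and -0.55, and neither passed, with adjusted p values of 0.229 and 0.342 in limma. The 5 lipocalin-related genes had a median of 0.26, of -0.25 within slide 1 and of 0.78 within slide 2. lpr-2 and lpr-5 differed by 0.16 and 0.42. Of the 13 mlt-10 relatives 12 were on the array and 4 were tested, of which 2 were well above background on all 8 arrays. mltn-4 was -6.25 to -5.04 in N2 and -5.86, -6.65, -2.93 and -3.81 in the mutant, again highest in replicates 3 and 4. Its lowest values were as dim as those of let-653, so its rise was not measured from a clear signal. mltn-2 differed by -0.62.

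The 29 tested genes of the remaining molting machinery had a median of 0.15. pdi-2, a subunit of the collagen prolyl hydroxylase, differed by -0.39 and bli-4, the convertase that trims procollagens, by -0.25. The 5 tested furrow collagens had a median of 0.21, with 0.34 for dpy-10 and 0.17 for dpy-8. The 9 regulators of the molting cycle had a median of -0.04. lin-42, the worm relative of Period, was -0.94, -0.81, -2.18 and -1.73 in N2 and -2.21, -2.40, -2.44 and -2.28 in the mutant, without overlap and with a difference of -0.92 ± 0.29 (SE) and an adjusted p of 0.31 in limma. blmp-1, a zinc finger factor, differed by -0.32, also without overlap and with an adjusted p of 0.327. Groups without overlap and with the mutant lower made up 5.01% of all genes. Both were named for having the smallest unadjusted p of their list.

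**Figure D4:**
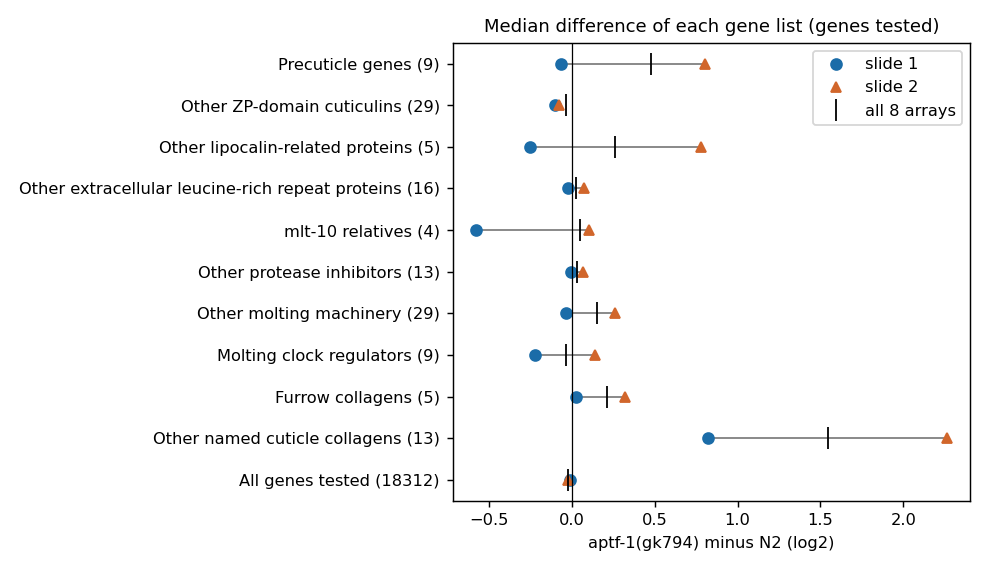
Median difference between aptf-1(gk794) and N2 (log2) over the tested genes of each list within slide 1 (circles), within slide 2 (triangles) and over all arrays (bars), with the number of genes in parentheses. The precuticle genes, the lipocalin-related genes and the named cuticle collagens lie furthest to the right on slide 2, at 0.80, 0.78 and 2.26, and all genes tested lie at -0.03.

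The 5 genes outside the set whose levels over the 8 arrays were most like the mean of the 9 genes, by Pearson r, were D1054.9 (0.995), F58H10.1 (0.989), F52G3.5 (0.984), mam-2 (0.982) and T27A10.6 (0.980). These values describe 8 arrays and carry no test, since mutant replicates 3 and 4 stand apart from the other 6 in all of them. D1054.9 was -5.74 to -4.59 in N2, -5.60 and -5.04 in mutant replicates 1 and 2 and -0.29 and -1.34 in replicates 3 and 4. F58H10.1 was -2.97 to -2.70 in N2 and reached -1.35 and -1.74 in those replicates. None of the 5 passed the threshold in limma, with adjusted p values from 0.434 to 0.594.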

How the data were processed

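The authors deposited scanner output for 8 single-color Agilent arrays, with spot intensities on a linear scale. Per the file headers, version 10.7.3.1 of Feature Extraction made them. The processed intensity was background-subtracted and not scaled between arrays. A further deposited table held processed intensities that ranked the probes of each array as the scanner values did and was quantile-normalized. It served only as an alternative. The submitters' processing notes name limma, and the design was made on build ce4 (WS170), so no coordinates are given.

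Controls were dropped, as were the 18 to 62 spots per array flagged as outliers. Spots of a probe were averaged as log2 processed intensity and the 75th percentile of the array was subtracted. Testing required a probe to be well above background on every array of 1 genotype or both, and the value of a gene is the mean of its tested probes. Between 72.2% and 79.7% of the spots of an array were well above background, and precision rests on the number of arrays. Probes were named by locus tag or accession from the RefSeq table for WBcel235, which matched 34266 of 43603 probes (78.6%).

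All genes were fitted together in limma 3.58.1 under R 4.3.3 (lmFit and eBayes, genotype only, two-sided, 6 residual degrees of freedom), with Benjamini-Hochberg adjustment over everything tested. Called means at least 1.5-fold, the limit stated by the study, and an adjusted p under 0.05. The procedure was tested on simulated data. Files were read and plots drawn in Python 3.11.15 (pandas 2.3.3, numpy 2.4.6, matplotlib 3.10.9). Groups came from the labels, and the study's methods describe 4 biological samples per genotype.

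The genes and lists were chosen with earlier results of these data known. All 10 precuticle genes are named. Of each list the called genes are named, or else the 2 with the smallest unadjusted p, then the 5 genes most like the precuticle mean, and aptf-1 and flp-11. sqt-1, rol-8 and the chromosomal neighbors lie outside this rule and were chosen after their values were seen.

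Alternatives included quantile normalization and median scaling, normexp (offset 50, on the median spot signal, then quantile), no filter or one on all 8 arrays, the deposited values, slide as a block or within each slide, slide with position, a replicate block, the median of probes, other thresholds and each array left out. The interaction of slide and genotype and a fit without mutant replicates 3 and 4 were chosen after seeing the data.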

Additional observations from a re-analysis of the deposited data

Results flagged for a closer look

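Among 86 groups of 4 arrays examined, 4 held an array far from the other 3, where chance alone marks about 1 in 20 groups. Probe A_12_P109920 of mlt-9 was 1.59 in N2 replicate 1 and 1.05 to 1.14 in the other N2 arrays. Among the list genes, lpr-2 was -3.88 in N2 replicate 3 and -4.30 to -4.23 in the others. lpr-5 was -4.26 in N2 replicate 1 and -6.41 to -6.25 in the others, and srp-3 was -3.005 in N2 replicate 3 and -3.32 to -3.28 in the others. No gene value of the 9 precuticle genes was marked.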

How the results depend on the processing

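The count of precuticle genes called was 0 under all alternatives except the unadjusted threshold, where it was 4 of 9, or 3 of 8 without let-653. At that threshold 9 of the 123 list genes passed, beside 3.56% of all genes. Of the 13 precuticle probes 7 passed, among them several probes of mlt-9 and the probe of let-653. The matching share over all probes was not counted, so no excess can be read from this count. The list count was 2 with the slide as a block. The median difference over the 9 genes was -0.0654 within slide 1, between 0.23 and 0.68 with 1 array left out, 0.16 with normexp, 0.75 with slide and position terms and -0.0166 without mutant replicates 3 and 4. Counts of calls stayed at 0 with 1 array left out for genes, probes and list genes. Over 188 single-gene values under alternatives, 13 changed sign. Within slide 1 these were noah-1 (-0.23), lpr-3 (-0.24) and mlt-8 (-0.0654), and without mutant replicates 3 and 4 they were noah-1 (-0.21), lpr-3 (-0.0823) and mlt-8 (-0.37). mlt-8 was between -0.0550 and 0.52 and sym-1 between -0.43 and 0.10 with 1 array left out. Positive values of sym-1 came without mutant replicate 1 (0.04) or 3 (0.01), without N2 replicate 2 (0.10) or 3 (0.08), and within slide 2 (0.0543). noah-2 was 0.0521 with slide and position terms. The cause of these changes was not tested. The lowest adjusted p for a precuticle gene under any alternative was 0.0924 in limma, for let-653, which entered the test through the mutant group alone. Without let-653 it was 0.194, for noah-2. Under normexp most differences shrank, to -0.24 for noah-2 and 0.55 for mlt-9, while mlt-10 stayed at 2.14. Over all genes, calls numbered 17, between 2 and 5 with 1 array left out, and 0 with slide and position terms.

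The labels number the replicates of both genotypes, but deviations of same-numbered arrays correlated at -0.11, 0.24, 0.06 and 0.20, so the numbers were not taken as pairs. With the replicate block, 0 precuticle genes and 0 genes of all were called, and noah-2 had an adjusted p of 0.373 in limma.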
